A study of Mus musculus with 12 samples.

Results

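Cholesterol synthesis, uptake and transport genes were followed in the embryonic testis of mice derived from an ancestor exposed to thiacloprid (*thia*), a neonicotinoid insecticide that acts on insect nicotinic acetylcholine receptors. The set held 32 of the 35976 gene symbols counted and was chosen by name and function. It had 20 enzymes of the synthesis route from acetate to cholesterol, among them Ggps1, which branches off that route. With them were 5 regulators that sense sterol and switch the route, and 7 proteins that release, store, carry or export cholesterol. The 7 hold no lipoprotein receptor, so uptake at the cell surface is not covered. Outbred Swiss (RjOrl) females carried the F1 embryos and were given *thia* at 6 mg/kg per day, suspended in oil, by gavage from E6.5 to E15.5, while the fetal gonad formed, and control females received the oil alone. F3 embryos came from the male line, crossed in each generation to unrelated unexposed females, so that neither they nor their mothers met the compound. Testes were taken at E15.5 in both generations, and every library was a pool of the testes of 3 embryos. There were 3 pools in each of 4 groups: F1 control, F1 *thia*, F3 control and F3 *thia*.

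Cells make cholesterol from acetyl-CoA by condensing small units into mevalonate, then isoprenoids, then squalene, which is closed into a ring and trimmed to the final sterol. When sterol in the endoplasmic reticulum falls, SCAP escorts the SREBP factors to the Golgi, where they are cut and released to switch on most genes of the route, while INSIG proteins hold the complex back when sterol is plentiful. In the fetal testis Leydig cells draw on cholesterol as the precursor of testosterone, and every dividing cell needs it for membranes.

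Libraries held 25081647 to 68996146 counted reads, with a median of 42665445, and each member had at least 309 reads in every library, the lowest being for Abcg1. All 32 passed the filter on low counts in every comparison. Markers of Leydig, Sertoli and germ cells were present in all pools, as the testis label requires. Blood and muscle markers varied: 5 erythroid markers summed to 2116 to 2838 CPM (reads scaled to a common library size) in the F3 control pools and to 1407, 3528 and 1435 CPM in F3 *thia* replicates 1, 2 and 3. Muscle markers summed to 514 CPM in F1 *thia* replicate 2 against 21.3 to 63.5 CPM in the other F1 pools. In a pooled bulk tissue, fewer cells of a type and less RNA per cell cannot be told apart.

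Among the members themselves, 2 F3 pools stood at the edges. F3 control replicate 1 had the lowest level of the 6 F3 pools for 25 of 32 members, and F3 *thia* replicate 3 had the highest for 28. Counts of members are therefore also given without these pools. In F1 no pool held as many extremes: F1 control replicate 3 and F1 *thia* replicate 1 were lowest for 13 and 12 members, and F1 control replicate 1 and F1 *thia* replicate 3 were highest for 12 and 10.

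Levels per kilobase of annotated exon, the scale on which genes can be set against each other, spanned from 2.16 CPM per kb for Abcg1 to 92.9 for Hmgcs1, averaged over the 4 groups. Hmgcs1, which makes HMG-CoA, was followed by Fdps at 73.8, Cyp51 at 59.8, Acat2 at 52.7 and Insig1 at 48.8 CPM per kb. Npc2 had no fixed place, at 38.5 CPM per kb in F1 controls, below Insig1, and 64.4 in F3 controls, above Cyp51. Hmgcs1 lay above Fdps within every pool and in the mean of each of the 4 groups. Across pools, its lowest value, in F3 control replicate 1, lay below the highest of Fdps, in F3 *thia* replicate 3. At the foot of the order were Abca1 at 5.89, Acss2 at 3.36, Npc1 at 3.22 and Abcg1. Exon lengths came from the GENCODE union of transcripts, which lengthens genes with rare long isoforms, so these levels order genes only coarsely.

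**Figure D1:**
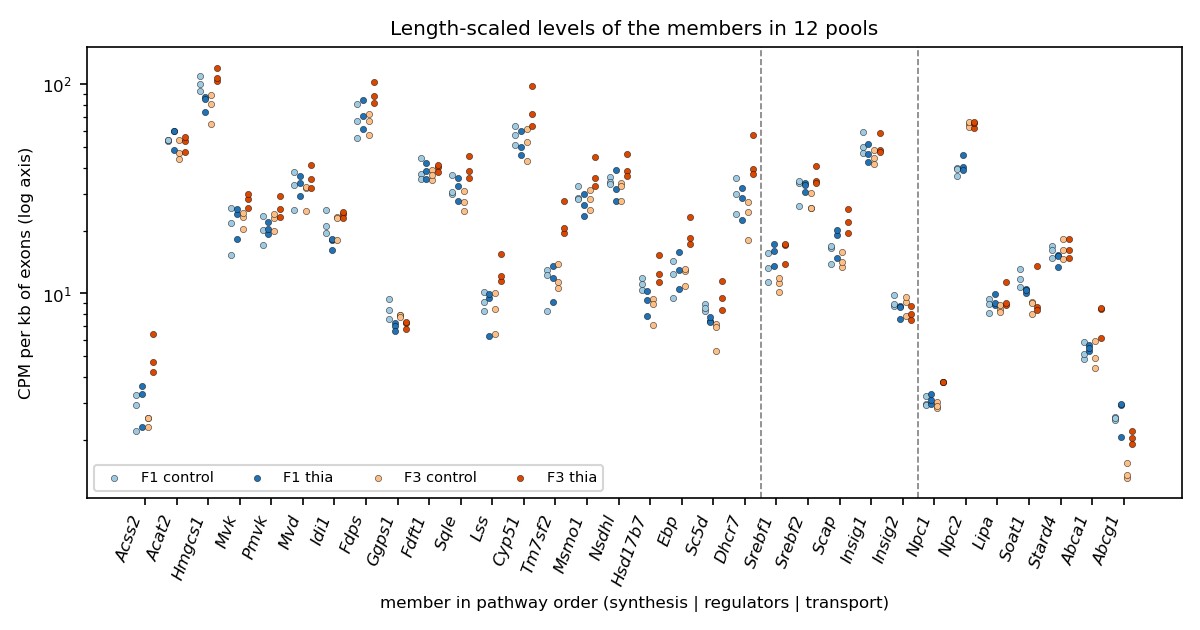
Level of each member in every pool, in CPM per kb of exons on a log axis, with members in pathway order and colours for the 4 groups. Points are single pools (3 per group). Hmgcs1 tops the order at a mean of 92.9 CPM per kb, and Abcg1 is lowest at 2.16.

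The main question was whether the cholesterol programme differed between *thia*-derived and control testes. In F3, 29 of 32 members had a higher mean in *thia* pools, and 20 had an unadjusted p under 0.05 in edgeR's quasi-likelihood test, all of them higher and none lower. Across all 18539 genes tested, 11.0% had such a p in the higher direction and 10.0% in the lower. The median log2 fold change of the members was 0.42, beside 0.00 over all genes. No member passed edgeR's adjusted p of 0.1, the threshold the study used in F3, and neither did any other gene (0.00% of genes); the 20 members lay at adjusted p 0.101 to 0.163. At an adjusted p under 0.15, 16 members were called, all higher, beside 5.07% of all genes called higher and 4.78% lower. DESeq2's Wald test, the tool of the study, called the same 20 members higher at adjusted p under 0.1 and none lower, beside 9.17% of genes higher and 5.70% lower. The study named cholesterol metabolism among the terms of genes up in these F3 pools, so the direction of the set is not independent evidence.

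The count of 20 became 16 without F3 control replicate 1, 16 without F3 *thia* replicate 3, and 14 with both left out, an alternative chosen after the data were seen. None was lower in any of these fits. The background moved too: the share of all genes with p under 0.05 in the higher direction was 6.07%, 6.64% and 3.58% in those 3 fits. Pools of the 2 groups did not overlap for 21 members with *thia* higher and 1 with *thia* lower, beside 13.4% and 13.9% of all genes.

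**Figure D2:**
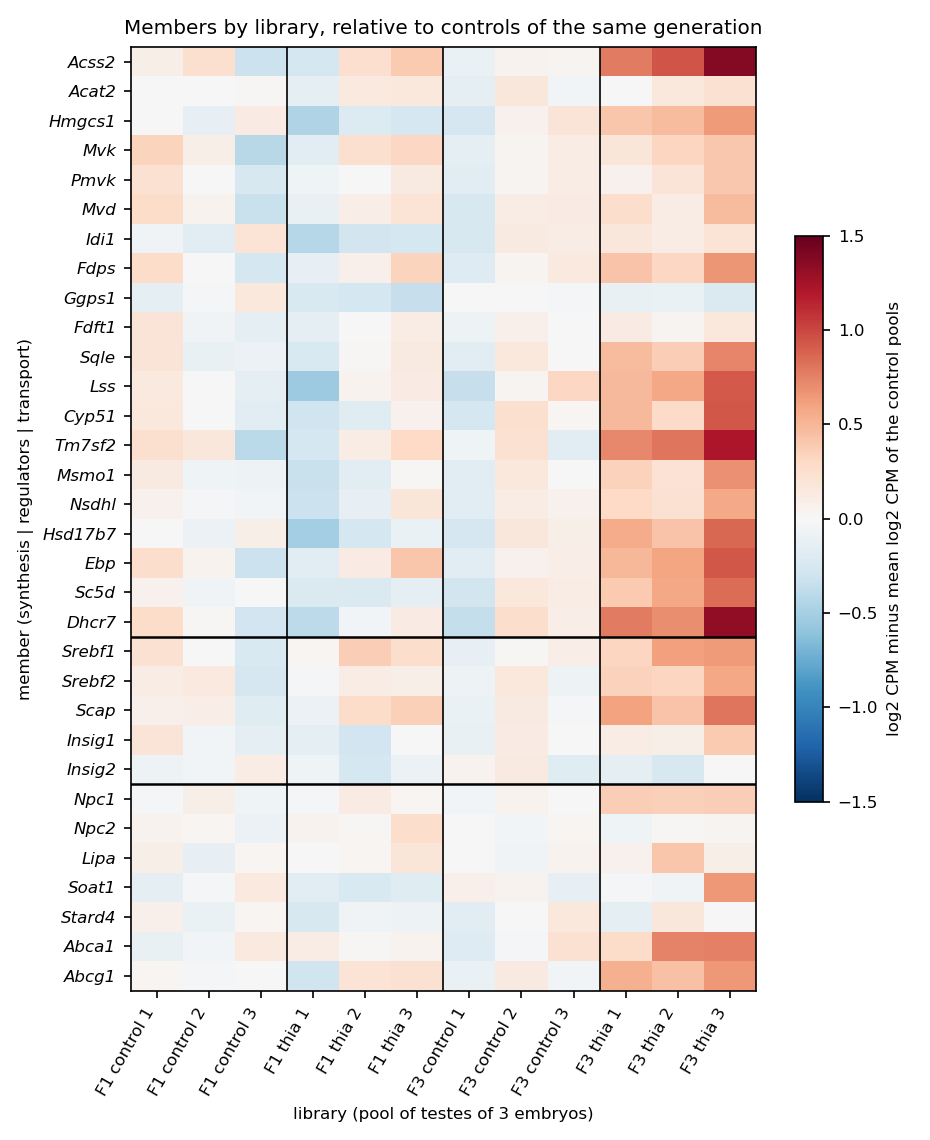
Heat map of the 32 members (rows, in pathway order) in the 12 pools (columns), as log2 CPM minus the mean log2 CPM of the control pools of the same generation; red is above and blue below those controls. The 3 F3 *thia* columns are red for most members, with replicate 3 the highest for 28, while the F1 *thia* columns hold both colours.

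**Figure D3:**
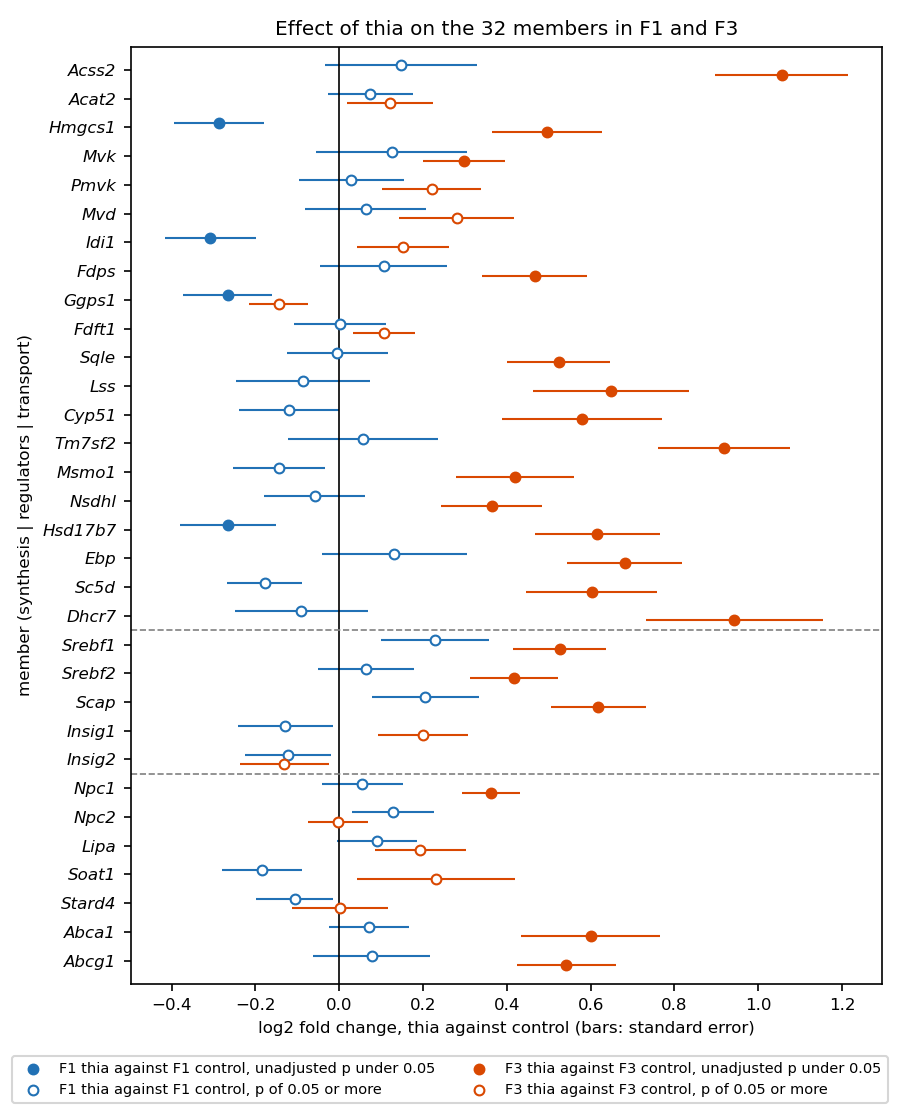
Log2 fold change of *thia* against control for each member in F1 (blue) and F3 (orange), with bars of 1 standard error and filled points where the unadjusted edgeR p was under 0.05. In F3, 20 points are filled, all right of 0; in F1, 4 are filled, all left of 0.

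Of the 20 synthesis enzymes, 14 had a p under 0.05 in F3, all higher, and the summed level of the enzymes was 1927, 2413.5 and 2354 CPM in the control pools and 2913, 2838 and 3598 CPM in the *thia* pools. Each *thia* pool lay above each control pool, and the ratio of the means was 1.40. Divided at squalene, a split made after the values were seen, the enzymes acting from squalene on had a p under 0.05 in 10 of 10 cases with a median log2 fold change of 0.61. Those acting up to squalene, with the branch enzyme Ggps1 counted among them, had one in 4 of 10 cases with a median of 0.25. With both edge pools left out, 7 of the former and 3 of the latter had a p under 0.05.

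At the entry of the route, Acss2, which makes acetyl-CoA from acetate, had the smallest p of all members. The gene (chr2:155517948-155585724, plus strand, GRCm38) stood at 23.4, 25.9 and 25.7 CPM in the F3 control pools and at 43.0, 48.0 and 64.9 CPM in the F3 *thia* pools. The control pools were tightly spaced, and the lowest *thia* pool lay well above them. Means were 25.01 ± 1.41 and 52.0 ± 11.4 CPM (SD, n = 3). The log2 fold change was 1.06 ± 0.16 (SE), with an adjusted p of 0.101 in edgeR.

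Hmgcs1, the enzyme before the rate-limiting step of the route, was at 298 to 408 CPM in F3 controls and at 475, 494 and 553 CPM in F3 *thia* pools. The groups did not overlap, and the log2 fold change was 0.50 ± 0.13 (adjusted p = 0.121, edgeR). Mvk, mevalonate kinase, was at 54.6, 62.1 and 65.1 CPM against 68.4, 75.5 and 79.8 CPM. It was the smallest of the 20 differences, at 0.30 ± 0.10 (adjusted p = 0.160). Fdps, which joins isoprene units into farnesyl diphosphate, was at 240.3, 282 and 303 CPM against 369, 341 and 432 CPM, a log2 fold change of 0.47 ± 0.13 (adjusted p = 0.124).

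Of the other enzymes up to squalene, all but Ggps1 overlapped between groups. Acat2, which joins acetyl-CoA units, was at 111 to 138 CPM in controls and 121 to 143 CPM in *thia* pools. Pmvk (34.1 to 41.3 against 39.8 to 50.3 CPM) and Mvd (46.3 to 59.97 against 59.1 to 76.5 CPM), which finish the isoprene unit, overlapped between groups, as did Idi1, its isomerase (63.0 to 81.4 against 80.1 to 85.9 CPM). Fdft1, which makes squalene and so commits the route to sterols, was at 148 to 165 CPM against 160.2 to 174 CPM, with a log2 fold change of 0.11 ± 0.07 (adjusted p = 0.449). Ggps1, which leads farnesyl units away to protein prenylation, was the only enzyme whose *thia* pools all lay below the controls, at 36.5 to 37.2 against 31.9 to 34.4 CPM. Its log2 fold change was -0.14 ± 0.07 (adjusted p = 0.287).

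From squalene on, the first oxygenation is by Sqle, a flux-controlling enzyme. It was at 138, 171 and 152 CPM in F3 controls and 213, 197 and 253 CPM in F3 *thia* pools (log2 fold change 0.52 ± 0.12, adjusted p = 0.108). Lss, which closes the ring to lanosterol, was at 69.1, 90.7 and 109 CPM against 123, 131 and 167 CPM (0.65 ± 0.19, adjusted p = 0.133). In both genes the groups stood apart, and F3 *thia* replicate 3 was highest.

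Enzymes that demethylate lanosterol came next. Cyp51 was at 189.6, 269 and 233 CPM against 318, 279 and 436 CPM, with the closest approach between F3 control replicate 2 and F3 *thia* replicate 2 (log2 fold change 0.58 ± 0.19, adjusted p = 0.160). Msmo1, the methyl sterol oxidase, was at 153, 192 and 173 CPM against 218, 199.8 and 276 CPM (0.42 ± 0.14, adjusted p = 0.163). Nsdhl, its partner dehydrogenase, was at 79.0, 96.5 and 93.1 CPM against 109, 104 and 132 CPM (0.36 ± 0.12, adjusted p = 0.160). Msmo1 and Nsdhl were the smallest differences among the 10 enzymes from squalene on. Hsd17b7, the ketosteroid reductase of the same step, was at 36.0, 48.2 and 45.5 CPM against 63.1, 57.8 and 77.8 CPM (0.62 ± 0.15, adjusted p = 0.110).

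Tm7sf2 (chr19:6062821-6068373, minus strand), a sterol reductase of the endoplasmic reticulum, was at 50.1, 61.2 and 46.9 CPM in F3 controls. It reached 86.1, 91.0 and 122 CPM in F3 *thia* pools, means of 52.7 ± 7.49 and 99.6 ± 19.3 CPM (SD, n = 3). The 3 *thia* pools lay clear of the controls, and the log2 fold change was 0.92 ± 0.16 (adjusted p = 0.105, edgeR). Its exons overlap those of Vps51 on the same strand, so some reads could belong to either gene.

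Ebp, the sterol isomerase (chrX:8185329-8193512, minus strand), was at 25.2, 29.7 and 30.3 CPM against 39.9, 42.7 and 53.8 CPM, means of 28.4 ± 2.79 and 45.5 ± 7.34 CPM (SD, n = 3). Its log2 fold change was 0.68 ± 0.14 (adjusted p = 0.105, edgeR). Sc5d, the desaturase that acts on the product of Ebp, was at 25.8, 34.7 and 33.6 CPM against 40.7, 46.5 and 55.5 CPM (0.60 ± 0.16, adjusted p = 0.118). Both genes kept the groups apart.

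Dhcr7, the reductase that finishes cholesterol and whose loss causes Smith-Lemli-Opitz syndrome, lies at chr7:143823145-143848410 (plus strand). It was at 104, 159 and 142 CPM in F3 controls and 229, 217 and 334 CPM in F3 *thia* pools, means of 135 ± 28.1 and 260 ± 64.3 CPM (SD, n = 3). The lowest *thia* pool exceeded the highest control, although both groups were wide. The log2 fold change was 0.94 ± 0.21 (adjusted p = 0.105, edgeR).

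Promoter sequence was read for the members because SREBP factors bind a sterol element and work beside NF-Y, which binds CCAAT boxes. RefSeq windows of the 250 bases before the start (GRCm38.p6) were at hand for 26 of 32 members; those of Fdps, Fdft1, Sqle, Npc1, Stard4 and Abcg1 were not. The sterol element TCACNCCAC, on either strand, was in the window of 1 of these 26 members and of 1.22% of 27025 genes. CCAAT, on either strand, was in a window of 23 of the 26, among them 16 of 17 synthesis enzymes, and of 37.5% of all genes. The motifs share no base in the member that holds both. Of 44 CCAAT matches in member windows, 30 lay on the strand opposite to the gene. A match is a description of letters and not a shown binding site.

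The Hmgcs1 window (chr13:119690101-119690350, plus strand) is shown because it alone holds the sterol element, which begins 137 bases before the start, between CCAAT matches that begin 176 and 45 bases before it. Those of Acss2 (chr2:155517793-155518042, plus strand), Tm7sf2 (chr19:6067851-6068100, minus strand), Ebp (chrX:8193513-8193762, minus strand) and Hsd17b7 (chr1:169969206-169969455, minus strand) are shown as the enzymes of smallest F3 p with a single window and a CCAAT match, a choice made after the values were seen. Starts are those of RefSeq and differ from the GENCODE gene spans for some genes. The Tm7sf2 window lies inside its GENCODE span, and those of Acss2 and Hsd17b7 reach into theirs. All windows are written 5′ to 3′ on the strand of the gene, with matches in capitals (TCACCCCAC for the sterol element, and CCAAT, or ATTGG where it lies on the other strand).
Hmgcs1: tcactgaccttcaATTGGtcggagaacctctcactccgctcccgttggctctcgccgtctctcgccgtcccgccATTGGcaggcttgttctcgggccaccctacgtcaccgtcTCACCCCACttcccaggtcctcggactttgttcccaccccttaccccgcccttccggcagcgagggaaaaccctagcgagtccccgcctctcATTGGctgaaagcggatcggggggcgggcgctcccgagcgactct
Acss2: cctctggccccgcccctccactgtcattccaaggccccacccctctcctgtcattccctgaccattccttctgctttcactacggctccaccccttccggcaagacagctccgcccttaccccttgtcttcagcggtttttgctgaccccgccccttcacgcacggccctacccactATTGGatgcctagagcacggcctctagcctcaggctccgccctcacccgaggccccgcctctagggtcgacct
Tm7sf2: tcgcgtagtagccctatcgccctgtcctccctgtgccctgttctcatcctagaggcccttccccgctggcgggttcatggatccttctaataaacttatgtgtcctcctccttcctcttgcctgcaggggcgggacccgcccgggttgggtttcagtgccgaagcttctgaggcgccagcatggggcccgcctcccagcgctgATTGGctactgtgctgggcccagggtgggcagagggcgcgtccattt
Ebp: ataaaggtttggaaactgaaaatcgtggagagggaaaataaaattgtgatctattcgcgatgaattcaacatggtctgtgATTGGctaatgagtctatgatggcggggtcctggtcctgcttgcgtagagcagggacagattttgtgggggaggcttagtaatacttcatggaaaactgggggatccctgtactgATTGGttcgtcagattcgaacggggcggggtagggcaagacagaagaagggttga
Hsd17b7: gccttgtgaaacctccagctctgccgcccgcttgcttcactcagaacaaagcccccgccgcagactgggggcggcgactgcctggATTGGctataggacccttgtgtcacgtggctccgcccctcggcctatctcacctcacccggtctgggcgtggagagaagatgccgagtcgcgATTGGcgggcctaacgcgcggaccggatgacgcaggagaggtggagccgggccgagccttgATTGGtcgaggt

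**Figure D4:**
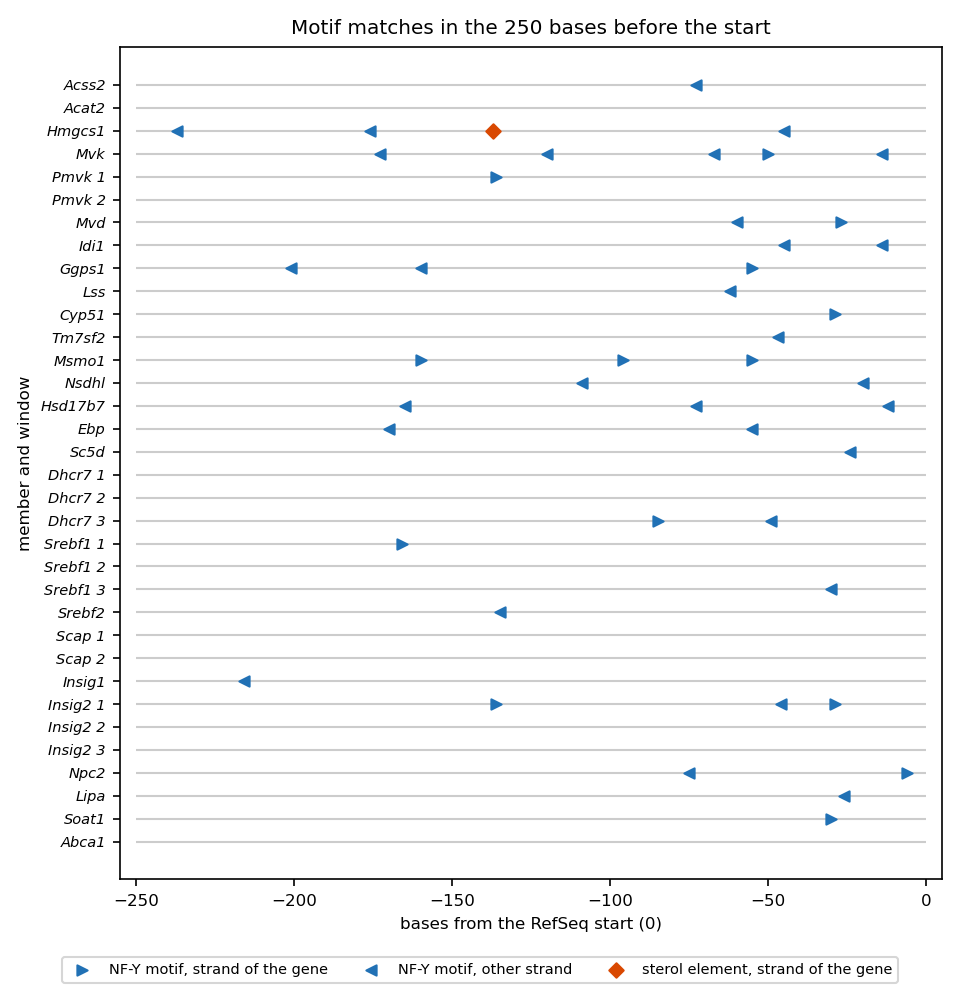
Motif matches in the 34 RefSeq windows of 26 members, by distance in bases from the start at 0; triangles mark NF-Y (CCAAT-box) matches and point right on the gene's strand, and the diamond marks the sterol element. Numbers after a name tell windows of one gene apart. Hmgcs1 carries the single sterol element, at 137 bases before the start.

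Among the regulators, 3 of 5 had a p under 0.05 in F3, all higher, and they summed to 502 to 583 CPM in controls against 657 to 789 CPM in *thia* pools. Scap, the sterol-sensing escort (chr9:110333288-110384950, plus strand), was at 100.03, 118 and 106 CPM against 164, 144 and 188 CPM, means of 108 ± 9.05 and 166 ± 21.9 CPM (SD, n = 3). Every *thia* pool was above every control, and the log2 fold change was 0.62 ± 0.11 (adjusted p = 0.105, edgeR).

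Srebf1, the factor best known for fatty acid genes (chr11:60199089-60222581, minus strand), was at 57.4, 63.2 and 66.7 CPM against 77.7, 95.6 and 96.7 CPM, means of 62.4 ± 4.72 and 90.0 ± 10.7 CPM (SD, n = 3). The groups did not overlap (log2 fold change 0.53 ± 0.11, adjusted p = 0.105, edgeR). Srebf2, the factor best known for cholesterol genes, was at 185, 217 and 185 CPM against 248, 243 and 292 CPM (0.42 ± 0.11, adjusted p = 0.117). The retention proteins did not separate: Insig1 was at 128 to 151 CPM against 147 to 181 CPM (0.20 ± 0.11, adjusted p = 0.336). Insig2 was at 27.05 to 33.5 CPM against 25.98 to 30.4 CPM (-0.13 ± 0.11, adjusted p = 0.523).

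Among the 7 transport members, 3 had a p under 0.05 in F3, all higher: the lysosomal cholesterol exporter Npc1 and the sterol efflux pumps Abca1 and Abcg1. Npc1 (chr18:12189692-12236400, minus strand) was at 32.2, 34.4 and 32.9 CPM in controls and at 42.8, 42.5 and 42.8 CPM in *thia* pools, means of 33.2 ± 1.15 and 42.7 ± 0.159 CPM (SD, n = 3). Its pools lay close together, with a gap between groups many times the spread within them, and no pool stood out. The log2 fold change was 0.36 ± 0.07 (adjusted p = 0.105, edgeR).

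Abcg1 (chr17:31057675-31117988, plus strand) was at 9.58, 11.3 and 9.94 CPM against 14.8, 13.9 and 16.1 CPM, means of 10.3 ± 0.890 and 14.9 ± 1.14 CPM (SD, n = 3). Its log2 fold change was 0.54 ± 0.12 (adjusted p = 0.105, edgeR). Abca1 was at 45.6, 51.0 and 61.3 CPM against 63.4, 87.7 and 88.5 CPM (0.60 ± 0.16, adjusted p = 0.126). For both efflux pumps the groups stood apart.

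The remaining carriers gave small differences. Npc2, which hands cholesterol to Npc1 in the lysosome, was at 340.4 to 358 CPM against 335 to 361 CPM (log2 fold change -0.00 ± 0.07, adjusted p = 0.987). Lipa, the lysosomal esterase, was at 55.5 to 59.7 CPM against 59.9 to 76.7 CPM (0.19 ± 0.11, adjusted p = 0.352), and its groups did not overlap by a narrow gap. Soat1, which esterifies cholesterol for storage, was at 78.2 to 89.2 CPM against 84.1, 81.8 and 133 CPM (0.23 ± 0.19, adjusted p = 0.527), so that only F3 *thia* replicate 3 was high. Stard4, a cytosolic sterol carrier, was at 81.5 to 102 CPM against 82.4 to 102 CPM (0.00 ± 0.11, adjusted p = 0.996).

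Related gene lists were counted beside the members in the same F3 fit. Of 14 genes of fatty acid synthesis, 9 had a p under 0.05, all higher, with a median log2 fold change of 0.44. The smallest p values were those of the desaturases Scd1 (1.22 ± 0.23), Fads1 (0.74 ± 0.15) and Scd2 (0.60 ± 0.13). Of 32 further sterol genes tested, 12 had one, all higher, among them the electron donors Cyb5r3 (0.53 ± 0.11) and Por (0.65 ± 0.14). Of 13 genes of the non-sterol isoprenoid branch, none was higher with such a p and 1 was lower, Fnta of the prenyltransferases (-0.20 ± 0.07). The list's median was 0.01, and next in order of p were Dolk (0.18 ± 0.10) and Coq2 (-0.14 ± 0.08).

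Markers of other cell types moved in F3 as well. The 6 Leydig markers, which include the steroidogenic genes Star and Cyp17a1, summed to 2191, 3621 and 3315 CPM in F3 control pools and 5387, 3842 and 6971 CPM in F3 *thia* pools. F3 control replicate 1 was lowest and F3 *thia* replicate 3 highest in this sum, as for the synthesis members. Of the 6 markers, 3 had a p under 0.05 (Lhcgr, Cyp17a1 and Star), all higher, and the median log2 fold change was 0.92. It was 0.37 with both edge pools left out, where that of the synthesis members was 0.26. Endothelial markers summed to 71.5 to 86.0 CPM against 119.7 to 159 CPM, with 3 of 4 higher at p under 0.05. Germ cell markers were lower in 6 of 6 cases, 4 of them at p under 0.05, and summed to 505 to 792 against 328 to 595 CPM. Sertoli cell sums (652 to 853 against 534 to 1049 CPM) and macrophage sums (120.1 to 194 against 121 to 194 CPM) overlapped between groups. Adrenal markers, which steroidogenic cells can share, summed to 31.6 to 48.7 against 51.6 to 112 CPM and did not overlap. Of the 4 adrenal markers 3 were tested and all were higher, 1 of them at p under 0.05: Cyp21a1 (1.07 ± 0.41), beside Mc2r (0.65 ± 0.29) and Cyp11b1 (0.53 ± 0.36). Cyp11b2 was at 0.133 to 0.419 CPM in the F3 pools, below the count filter. The embryonic globins Hbb-y (-2.54 ± 0.39, adjusted p = 0.101, edgeR) and Hba-x (-1.64 ± 0.27, adjusted p = 0.102) were lower in every *thia* pool than in any control, the only erythroid markers with a p under 0.05. Mesonephros markers summed to 10.9 to 17.8 against 9.67 to 10.5 CPM. The part of these shifts in the level of the members was not tested.

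**Figure D5:**
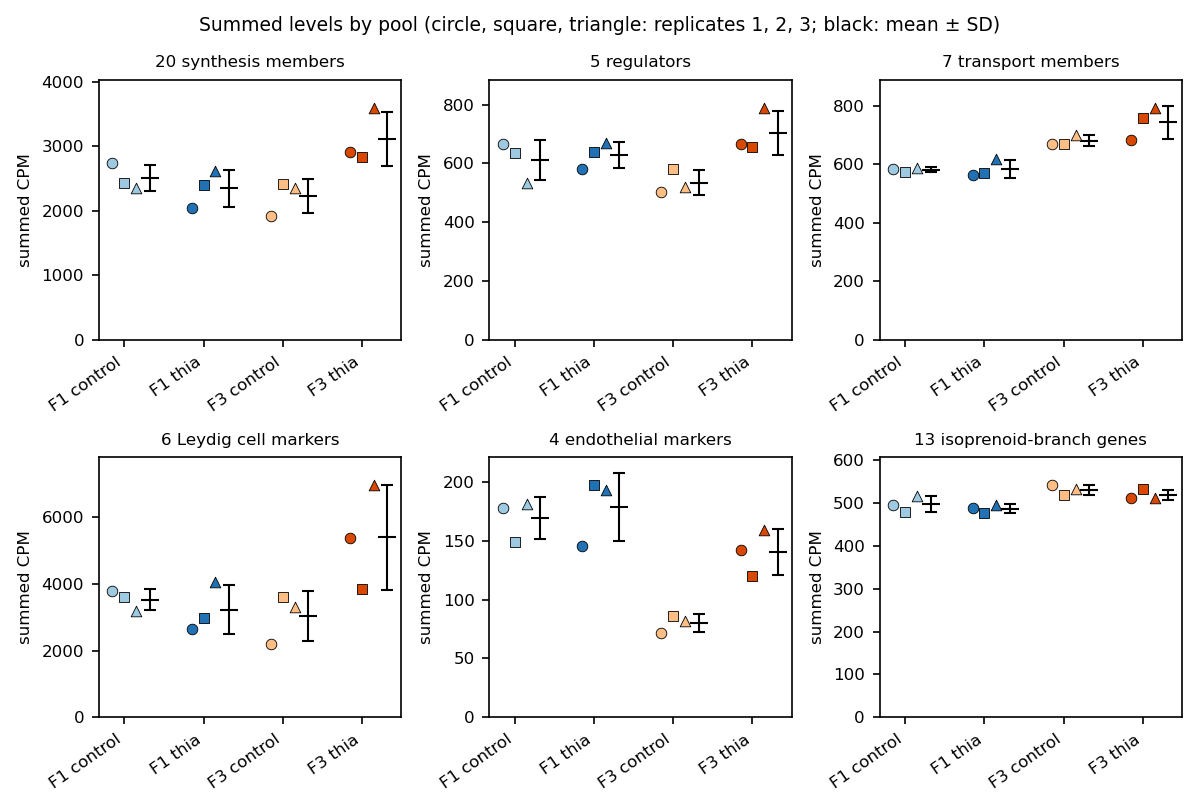
Summed CPM in each pool for the 3 roles of members, for Leydig and endothelial markers and for the isoprenoid branch; symbols are the 3 pools of a group and black bars the mean ± SD. In F3 the synthesis, regulator, Leydig and endothelial sums of the *thia* pools all lie above the controls. The F3 transport sums overlap, at 668 to 701 CPM in controls and 682 to 793 CPM in *thia* pools. The isoprenoid sums overlap too, at 510.5 to 541 CPM.

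In F1, the directly exposed embryos, the picture was different. No member passed edgeR's adjusted p of 0.15, the threshold used in F1, beside 0.0105% of all genes, and DESeq2 called none at that threshold, beside 0.488% of genes higher and 0.525% lower. At unadjusted p under 0.05, none was higher and 4 were lower, beside 4.63% and 4.13% of all genes. The median log2 fold change of the members was 0.02. Pools did not overlap for 6 members, all with *thia* lower, beside 8.45% of genes lower and 6.55% higher.

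Idi1, the isomerase of the isoprene unit (chr13:8885501-8892451, plus strand), had the smallest F1 p. It was at 73.6, 68.2 and 87.6 CPM in F1 controls and at 56.7, 63.0 and 63.6 CPM in F1 *thia* pools, means of 76.5 ± 9.99 and 61.1 ± 3.84 CPM (SD, n = 3). All *thia* pools were below the controls (log2 fold change -0.31 ± 0.11, adjusted p = 0.518, edgeR).

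Hmgcs1 (chr13:119690379-119708260, plus strand) was at 463, 425 and 506 CPM against 340.0, 400.4 and 389 CPM, means of 464 ± 40.5 and 376 ± 32.1 CPM (SD, n = 3). Its log2 fold change was -0.29 ± 0.11 (adjusted p = 0.520, edgeR). Ggps1 (chr13:14050659-14063488, minus strand) was at 35.8, 39.3 and 44.5 CPM against 34.0, 33.1 and 31.1 CPM, means of 39.8 ± 4.35 and 32.7 ± 1.47 CPM (SD, n = 3), with -0.27 ± 0.11 (adjusted p = 0.548). Hsd17b7 was at 56.7, 53.3 and 60.3 CPM against 39.9, 47.4 and 52.7 CPM (-0.27 ± 0.11, adjusted p = 0.560). In each of these genes the groups did not overlap, but the gap was narrow beside the spread.

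Sc5d and Soat1 also had every F1 *thia* pool below every control, with adjusted p = 0.590 and 0.597 in edgeR. The 5 regulators lay between log2 fold changes of -0.13 and 0.23, and the 7 transport members between -0.18 and 0.13. The count of 4 fell to 1 without F1 control replicate 3 and to 2 without F1 *thia* replicate 2, the pool with high muscle markers. It became 2 higher and 1 lower without F1 *thia* replicate 1, and 1 higher and 4 lower without F1 control replicate 1. Across all genes, 3.55%, 4.55%, 4.52% and 5.19% were higher at such a p in those fits, in that order. Lower were 472 of 19677, 666 of 19657, 972 of 19332 and 1285 of 19657 genes. Summed synthesis levels overlapped, at 2740, 2432 and 2350 CPM in controls and 2040, 2395 and 2613 CPM in *thia* pools, and so did Leydig marker sums, at 3182 to 3791 against 2646 to 4055 CPM. Germ cell markers were lower in 6 of 6 cases, 5 of them at p under 0.05 and 1, Dppa3, at an adjusted p of 0.0278 in edgeR, with a median log2 fold change of -0.56. Adrenal marker sums were lower without overlap, at 42.1 to 57.7 against 25.2 to 36.9 CPM. Sums of macrophage markers (59.3 to 71.3 against 74.3 to 90.6 CPM) and mesonephros markers (8.76 to 11.3 against 11.8 to 17.6 CPM) were higher without overlap. The part of these shifts in the F1 values of the members was not tested.

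The difference between generations was tested directly as the F3 effect minus the F1 effect. It was positive for 31 of 32 members, with p under 0.05 for 18, all positive, beside 7.93% of genes positive and 6.10% negative. No member passed an adjusted p of 0.1 in edgeR (0.00510% of genes did), and the smallest was 0.248, while DESeq2 called 8, all positive, beside 2.85% of genes positive and 1.89% negative. The 18 were 17 of the 20 members of F3 and Idi1. Among synthesis members Dhcr7 differed most (log2 1.05 ± 0.29, adjusted p = 0.248), then Acss2 (0.93 ± 0.27, adjusted p = 0.251) and Hsd17b7 (0.90 ± 0.20, adjusted p = 0.248). Idi1 differed by 0.48 ± 0.16 (adjusted p = 0.255), with log2 fold changes of -0.31 in F1 and 0.15 in F3. Of the regulators Scap (0.43 ± 0.18, adjusted p = 0.330) and Srebf2 (0.37 ± 0.16, adjusted p = 0.340) had a p under 0.05, and Srebf1 did not (0.31 ± 0.18, adjusted p = 0.456). All 3 transport members with an F3 difference had a p under 0.05 here too: Abca1 (0.55 ± 0.19), Abcg1 (0.48 ± 0.19) and Npc1 (0.32 ± 0.11). The count of 18 was 13 without F3 control replicate 1 or without F3 *thia* replicate 3, and 8 with both left out, while the share of all genes with such a positive p fell to 5.0%, 6.06% and 3.72%. The difference was also positive at p under 0.05 for 5 of 6 Leydig, 3 of 4 endothelial and 2 of 3 adrenal markers. So it was for 7 of 14 fatty acid genes and 9 of 33 further sterol genes. The median was 1.01 for Leydig markers and 0.43 for the members. Sertoli, germ cell, macrophage and isoprenoid lists had no such p, and erythroid, muscle and mesonephros lists only negative ones. The part of these shifts in the members was not tested.

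The control groups themselves differed between generations. Whether F1 and F3 libraries were made together was not given in the sources used here, so generation and batch cannot be told apart. Of all genes, 43.2% passed an adjusted p of 0.1 in edgeR, and 22.1% were higher and 22.7% lower at unadjusted p under 0.05. Of the members, 6 passed that adjusted p, 1 higher and 5 lower in F3 controls. Npc2 was at 198 to 218 CPM in F1 controls and 340.4 to 358 CPM in F3 controls (log2 0.76 ± 0.09, adjusted p = 0.000417). Abcg1 was at 18.2 to 18.8 against 9.58 to 11.3 CPM (-0.83 ± 0.11, adjusted p = 0.000875), so its F3 *thia* level of 13.9 to 16.1 CPM lay between the control groups. Soat1 was lower by 0.43 on the log2 scale (-0.43 ± 0.10, adjusted p = 0.00900), and Hmgcs1 (-0.35 ± 0.13), Hsd17b7 (-0.38 ± 0.12) and Sc5d (-0.39 ± 0.12) were lower too. The count of 6 was 10 without F1 control replicate 3, beside 40.6% of all genes. It was 4 without F3 control replicate 1, beside 34.3% of all genes. Markers of macrophages, cells rich in lysosomes, summed to 59.3 to 71.3 CPM in F1 controls and 120.1 to 194 CPM in F3 controls. Of the 6 Sertoli markers 5 were lower in F3 controls at an adjusted p under 0.1, with mean sums of 1343 CPM in F1 and 745 CPM in F3 controls. All 4 endothelial markers were lower (169 and 79.9 CPM), and 3 of 5 erythroid markers (505 and 2481 CPM) and 4 of 6 muscle markers (36.9 and 121 CPM) were higher. Leydig markers were lower in 6 of 6 cases, 2 of them at that adjusted p (3532 and 3042 CPM). Germ cell markers were lower in 6 of 6 cases, 3 of them at that adjusted p (939 and 655 CPM). The part of these shifts in the levels of the members was not tested.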

How the data were processed

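Testes were pooled from 3 embryos per library and sequenced as paired-end stranded RNA. The authors demultiplexed with bcl2fastq 2.20.0.422, aligned reads to mm10 with HISAT2 2.1.0 and counted them per gene symbol with featureCounts on the UCSC refGene annotation; the version and strand setting of the counter were not given in the sources used here. The deposited values are whole-number counts, not normalised, with 35976 symbols in each of 12 libraries and 0 rows that name no gene. Exons of 10 members overlap a gene on the opposite strand and those of 3 a gene on the same strand.

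From these counts, each comparison was fitted with edgeR 4.0.16 (filterByExpr with a minimum count of 10, TMM scaling, quasi-likelihood test, Benjamini-Hochberg over all genes; R 4.3.3). F1 and F3 each had their own fit of 6 libraries. The difference of effects was an interaction in 1 fit of 12 libraries, and the control groups were compared in a fit of their own. Thresholds were an adjusted p of 0.15 in F1 and 0.1 elsewhere. SE is the log2 fold change divided by the root of F. Levels are CPM scaled by TMM over the 12 libraries. Locations and exon lengths came from GENCODE M21 (GRCm38), promoters from RefSeq (GRCm38.p6); in 30 of 34 member windows the bases after the start lay in a transcript of that gene. DESeq2 1.42.0, other scalings, filters and left-out libraries were alternatives. The scripts were tested on simulated data.

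All members were named; values per pool were given for those with an unadjusted p under 0.05 in a *thia* comparison or in the difference, most fully for the 8 smallest p in F3 and the 3 smallest in F1, and others by their range. Further lists gave counts and up to 3 genes of smallest F3 p. A gene that this rule would name is not reported here. Promoters were to be shown for up to 5 synthesis members with the sterol element; 1 held it. Members and lists were chosen with earlier results of these data known. Pools of a group differed beyond counting noise and none was a duplicate. Over all genes, F3 *thia* replicate 2 differed most, with a chi-square per degree of freedom of 90.7 against replicate 1 and 100.9 against replicate 3. Replicates 1 and 3 of F3 *thia* differed by 36.2, and pairs of the other groups by 17.3 to 42.2. The study treated at least 10 unrelated females per dose and took males of different litters for each assay. It also repeated the whole breeding from F0 to F3 with an independent treatment. Which litter or treatment round each pooled embryo came from was not given per library in the sources used here. P-values measure the spread between 3 pools.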

Additional observations from a re-analysis of the deposited data

Results flagged for a closer look

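In 3 members all F1 *thia* pools lay below the F1 controls and all F3 *thia* pools lay above the F3 controls. Of all genes, 8.45% were lower without overlap in F1 and 13.4% higher in F3. The share with both was not counted, so whether 3 of 32 members exceeds the share among all genes is not known. The 3 members were singled out by their values, so the p-values below are not separate evidence. The F3 effect minus the F1 effect, on the log2 scale, was 0.80 for Hmgcs1 (SE 0.17), 0.90 for Hsd17b7 (SE 0.20) and 0.80 for Sc5d (SE 0.18). The interaction had an unadjusted p of 0.000418, 0.000537 and 0.000602 and an adjusted p of 0.248 in edgeR for each, and an adjusted p of 0.00994, 0.0122 and 0.0148 in DESeq2. In the same 3 genes the F3 controls were lower than the F1 controls at an adjusted p under 0.1 (log2 -0.35, -0.38 and -0.39).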

How the results depend on the processing

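The F3 count of members at adjusted p under 0.1 depended on the setting, since the members lay just past that threshold at 0.101 and above. It was 0 as reported and 20 with DESeq2's test (14.9% of all genes called), 8 with upper quartile scaling (2.80%), 11 with no low-count filter (1.85%), 6 with at least 10 counts in every library (1.94%), 18 with all 12 libraries in one fit (9.86%), 1 with bias-adjusted deviances (0.437%) and 16 at an adjusted p under 0.15 (5.07% higher and 4.78% lower). Leaving out 1 library gave 0 to 14, with 14 without F3 *thia* replicate 2 (6.82%). The count with unadjusted p under 0.05 stayed at 16 to 21 with any library left out and at 14 with F3 control replicate 1 and F3 *thia* replicate 3 both left out. For the difference of effects, DESeq2 called 8 members and edgeR 0, and 13 to 21 had p under 0.05 with 1 library left out, but 8 with both edge pools left out. In F1 the count with p under 0.05, in either direction, ranged from 1 to 5 and the adjusted count stayed at 0. Between controls, 4 to 10 members passed the adjusted p with 1 library left out, beside 33.6% to 40.6% of all genes. The unadjusted p was passed by 5 to 10 members. No fold change of a member with p under 0.05 as reported changed direction in any of these fits. Replicate numbers are shared between groups but did not pair the pools: same-number correlations of deviations were -0.04, -0.03 and 0.03 in F1 and 0.17, -0.33 and -0.21 in F3. With the replicate block, 21 members had p under 0.05 in F3, 3 in F1 and 15 for the difference, and none passed the adjusted p in those comparisons. The litter and treatment round of each embryo, the dissection of each pool and cell composition are not recorded per library. With 3 pools a group, effects of small size stay undetected.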
